A study of Mus musculus with 8 samples.

Results

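H19 and 8 imprinted growth genes, Igf2, Igf2r, Cdkn1c, Dlk1, Meg3, Peg3, Plagl1 and Grb10, were followed in mouse T-cell progenitors with and without CRISPR guides against Stat5a and Stat5b. The 9 genes were taken by symbol from a list of imprinted growth regulators, out of 24506 genes in the count table. The members were chosen by name with earlier results of these data known. H19 was selected on its low counts in sgStat5 libraries of the late gate. Its values there, and every value built on them, are therefore given as a description without a test. Of the 9 members, 6 passed a filter on low counts that kept 13775 genes; Meg3, Peg3 and Plagl1 did not pass it.

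RNA of 8 libraries was sequenced in bulk, 2 for each of 4 groups. Late sgStat5 cells carried 3 guides against Stat5a and 3 against Stat5b and were sorted as CD25+ Bcl11b-mCherry+, which the labels place after commitment to the T lineage. Late control cells carried control guides, with no target named in the labels, and were sorted in the same way. Early sgStat5 cells carried the Stat5 guides and early control cells the control guides, and both were sorted as CD25+ Bcl11b-mCherry-, the gate that the labels place before commitment. All 4 groups came from bone marrow progenitors of B6 mice with Cas9, a Bcl2 transgene and a Bcl11b-mCherry reporter, so the controls carry these alleles too. The guides were delivered by retrovirus, infected cells were grown for 6 days on OP9-DLL1 with IL-7 and Flt3l at 10 ng/ml each, and lineage-negative cells with the infection marker were sorted. OP9-DLL1 is a line of mouse marrow stroma engineered to present the Notch ligand DLL1. The labels give neither the age and sex of the mice nor the number of animals. Cutting by the guides can differ from cell to cell, and each library pools many cells.

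Imprinted genes are transcribed mainly from the copy inherited from 1 parent, set by DNA methylation laid down in the germ line. H19 and Igf2 lie next to each other and are controlled by a shared imprinting region: when CTCF binds the unmethylated maternal copy, the enhancers act on H19, an RNA that encodes no protein, and on the methylated paternal copy they act on Igf2, which encodes a growth factor. In mouse blood stem cells the maternal imprint of this locus has been tied to quiescence. The deposited counts do not separate the parental copies, so they give the total RNA of each gene and not its imprint.

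H19 is annotated on the minus strand of chromosome 7 from 142575530 to 142578146 (mm10), with 7 transcripts in GENCODE. It hosts a microRNA, miR-675, whose hairpin lies at chr7:142577064-142577147, 999 bases from the start of H19, within exon 1 or exon 2 of 3 of those transcripts. The hairpin and its mature arms are shown because they are the small RNA product that the H19 transcript carries; the sequences are those of RefSeq on GRCm38.p6, read 5′ to 3′ on the minus strand. In the mature arms the capitals mark the seed, bases 2 to 8, and in the hairpin they mark the mature arms.
mmu-miR-675-5p: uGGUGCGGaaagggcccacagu
mmu-miR-675-3p: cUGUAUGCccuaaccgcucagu
Mir675 hairpin: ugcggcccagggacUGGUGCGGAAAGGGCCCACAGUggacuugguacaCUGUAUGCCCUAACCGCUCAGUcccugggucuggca
The arms have different seeds, and each seed occurs in 1 of the 1738 mature mouse miRNAs of that table. In mouse placenta miR-675 has been reported to hold down Igf1r, the receptor through which IGF2 signals. These libraries measure long RNA, so the mature miRNA was not measured. Reads over the hairpin, which are also part of H19's own exon, numbered 3 and 0 in late sgStat5 libraries, 29 and 14 in late control libraries, 1 and 2 in early sgStat5 libraries and 22 and 11 in early control libraries.

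The labels were checked first. Stat5a averaged 112 ± 5.81 CPM in late sgStat5 libraries and 248 ± 13.4 CPM in late control libraries (SD, n = 2 each), and 105 ± 0.648 CPM in early sgStat5 and 257 ± 0.743 CPM in early control libraries. Stat5b was likewise lower in both gates with the guides, at 145 ± 13.5 against 267 ± 17.5 CPM in the late gate and 139 ± 7.98 against 252 ± 4.91 CPM in the early gate. Bcl11b averaged 606 and 380 CPM in late sgStat5 and late control libraries, against 101 and 88.8 CPM in early sgStat5 and early control libraries. The series text calls both gates reporter negative, whereas the sample titles separate a negative from a positive gate; the titles were followed, and the Bcl11b levels fit them. All 12 T-progenitor markers were detected in every library. Library totals ran from 22146490 to 31209177 counts, so that 3 counts corresponded to 0.0964 to 0.135 CPM. Xist, which tracks sex, had 0 to 8 counts in the replicate 1 libraries and 37566 to 65405 in the replicate 2 libraries. The replicates of a group thus came from different starting cells, and a difference between replicate numbers cannot be told apart from one of sex. The labels do not say how many animals or cultures stand behind each replicate number, and p-values reflect no more than the variation among these 8 libraries.

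H19 was low in all sgStat5 libraries. Its level was 6.10 and 4.20 CPM (138 and 117 counts) in late sgStat5 libraries, against 77.4 and 32.3 CPM (2022 and 1002 counts) in late control libraries. It was 3.46 and 5.43 CPM (77 and 147 counts) in early sgStat5 libraries, against 34.8 and 15.2 CPM (884 and 473 counts) in early control libraries, with replicate 1 the higher of the controls in both gates. The 4 sgStat5 values, from 3.46 to 6.10 CPM, all lay below the 4 control values, from 15.2 to 77.4 CPM. The late values among them are those that picked H19. With 2 libraries a group, other genes can also have groups that do not overlap, and their share of all genes was not counted. H19 remained detectable in every sgStat5 library, far above 3 counts.

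In the early gate, whose libraries did not enter the contrast that picked H19, the log2 fold change was -2.48 (SE 0.55, 95% interval -3.79 to -1.18), a level 5.59-fold lower in sgStat5 than in control cells. It did not pass at an adjusted p of 0.05 in edgeR's quasi-likelihood test without a replicate term (adjusted p = 0.240) and passed when the replicate number was fitted as a block (log2 fold change -2.31, SE 0.39, adjusted p = 0.0170). Within replicate numbers, H19 was 10.1-fold lower in the first pair and 2.80-fold lower in the second. With the block, leaving out each library in turn moved the log2 fold change between -3.25 and -1.56, and the call was lost without early control replicate 1 (-1.96, adjusted p = 0.132), the early control library with the higher H19. Across all genes, 0.269% passed in this comparison without the block and 2.33% with it. Of the 6 members tested here, 0 passed in edgeR without the block and 1, H19, with it. An unadjusted p under 0.05 was found for 1 member, and DESeq2 called 1, again H19. Of all 13775 genes, 887 had such an unadjusted p and DESeq2 called 247.

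In the late gate, where H19 was picked, the log2 fold change was -3.42 (SE 0.57; -3.33 with the block), or 10.7-fold lower in sgStat5 cells, and the pairs differed 12.7- and 7.71-fold. All genes that passed in this comparison made up 1.71% of those tested without the block and 8.22% with it. The guide effect in the late gate minus that in the early gate was -0.93 on the log2 scale (SE 0.75, interval -2.71 to 0.84), given as a description. In control cells H19 was 2.23-fold higher in the late than in the early gate in the first pair and 2.13-fold higher in the second. In sgStat5 cells the corresponding late-over-early ratios were 1.76 and 0.773, on either side of 1. The replicates of a control group differed by about as much as the gates did: replicate 1 was 2.39-fold above replicate 2 in late control cells and 2.29-fold above it in early control cells.

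**Figure D1:**
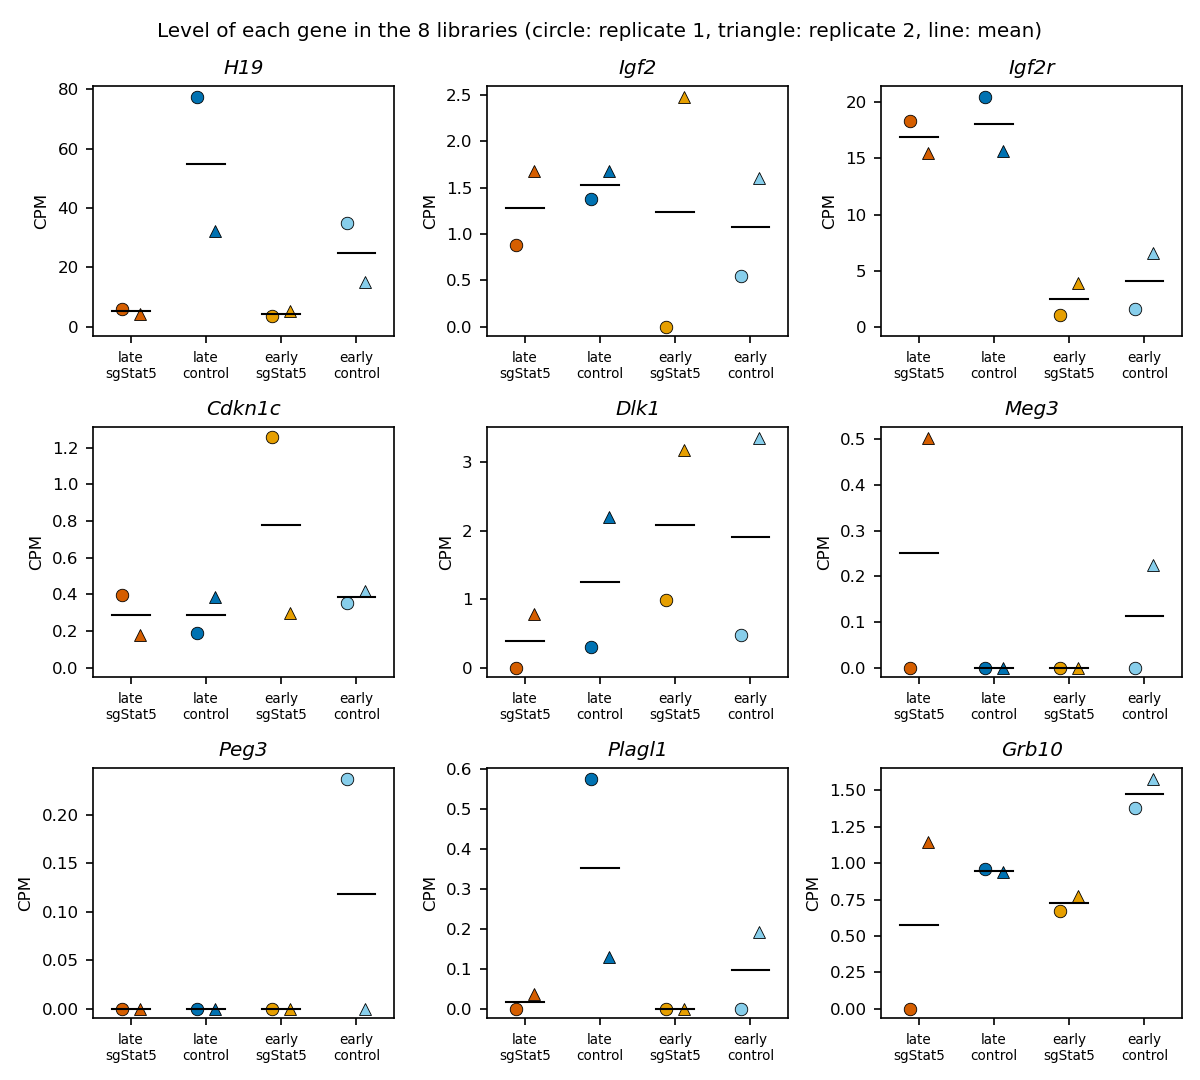
Level of the 9 members in CPM (linear axes, each panel with its own scale) in each library, by group; circles are replicate 1, triangles replicate 2 and lines the mean of 2 libraries. H19 lies between 3.46 and 6.10 CPM in all 4 sgStat5 libraries and between 15.2 and 77.4 CPM in the 4 control libraries. Igf2r is higher in all 4 late libraries than in any early library. The share of all genes whose groups separate in these ways was not counted.

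Markers of stromal cells were detected at unequal levels, although a sort for CD25+ lineage-negative cells with the infection marker should leave OP9-DLL1 cells out. The 25 stromal markers, such as collagens, summed to 376 and 984 CPM in late sgStat5 libraries, 316 and 1079 CPM in late control, 141 and 555 CPM in early sgStat5 and 193 and 648 CPM in early control libraries. The sum of replicate 2 exceeded that of replicate 1 in all 4 groups, by 2.62 to 3.95 times. Late sums exceeded early ones in all 4 pairs, by 1.64 to 2.67 times. The defining marker Pdgfrb did not follow this, with 2127 to 2669 counts over the 8 libraries. At 110 of the 141 CPM, it made up most of the sum in early sgStat5 replicate 1, so these ratios understate those of markers such as Col1a1. In early sgStat5 replicate 1, 11 of the 25 markers had no count, among them the defining markers Col1a1 and Col3a1; all 6 defining markers were detected in the other 7 libraries. In bulk samples, fewer cells of a type and less RNA per cell cannot be told apart.

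H19 ran the other way from the stromal sum between control replicates: it was higher in replicate 1, where the stromal sum was lower. The late sgStat5 replicates did too, and in early sgStat5 both were higher in replicate 2. Between gates in control cells both were higher in the late gate. In sgStat5 cells this held in the first pair only. The control ratios were 2.23 and 2.13 for H19 and 1.64 and 1.67 for the stromal sum. With the guides H19 was lower in all 4 pairs, and the stromal sum in both early pairs and the second late pair. The part of stromal RNA in the H19 level was not tested. In early sgStat5 replicate 1, where Col1a1 and Col3a1 had no count, H19 had 77 counts. Marker sums of other lineages also differed between sgStat5 and control libraries. The 18 stem and progenitor markers summed to 619 and 916 CPM in late sgStat5 and 459 and 669 CPM in late control libraries, and to 1144 and 1148 CPM in early sgStat5 and 812 and 903 CPM in early control libraries. The 10 myeloid markers summed to 6.36 and 23.8 CPM in late sgStat5 and 3.18 and 12.97 CPM in late control libraries, and to 65.9 and 53.9 CPM in early sgStat5 and 27.8 and 30.0 CPM in early control libraries. The 7 mast cell and erythroid markers summed to 756 and 758 CPM in late sgStat5 and 533 and 581 CPM in late control libraries, and to 1776 and 1287 CPM in early sgStat5 and 1286 and 974 CPM in early control libraries. These 3 sums were higher with the guides in each of the 4 pairs, and their part in the H19 difference was not tested. Kit is counted in both the stem and progenitor and the mast cell and erythroid sums, so these are not separate. The 7 B-cell markers summed to 17.1 and 13.77 CPM in late sgStat5 and 12.6 and 13.84 CPM in late control libraries. In the early gate they summed to 9.08 and 11.0 CPM with the guides and 6.77 and 11.2 CPM in controls. In both gates they were higher with the guides in the first pair only. The T-progenitor markers summed to 8000 and 6413 CPM in late sgStat5 libraries, against 9122 and 6677 CPM in late control libraries, and to 4961 and 4650 CPM in early sgStat5 libraries, against 6344 and 5370 CPM in early control libraries, lower with the guides in each pair. Sum and median differed in direction: the median log2 fold change of the 12 markers was 0.29 in the late and 0.06 in the early gate, and with the block 5 were higher and 2 lower in the late gate and 0 higher and 2 lower in the early gate.

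**Figure D2:**
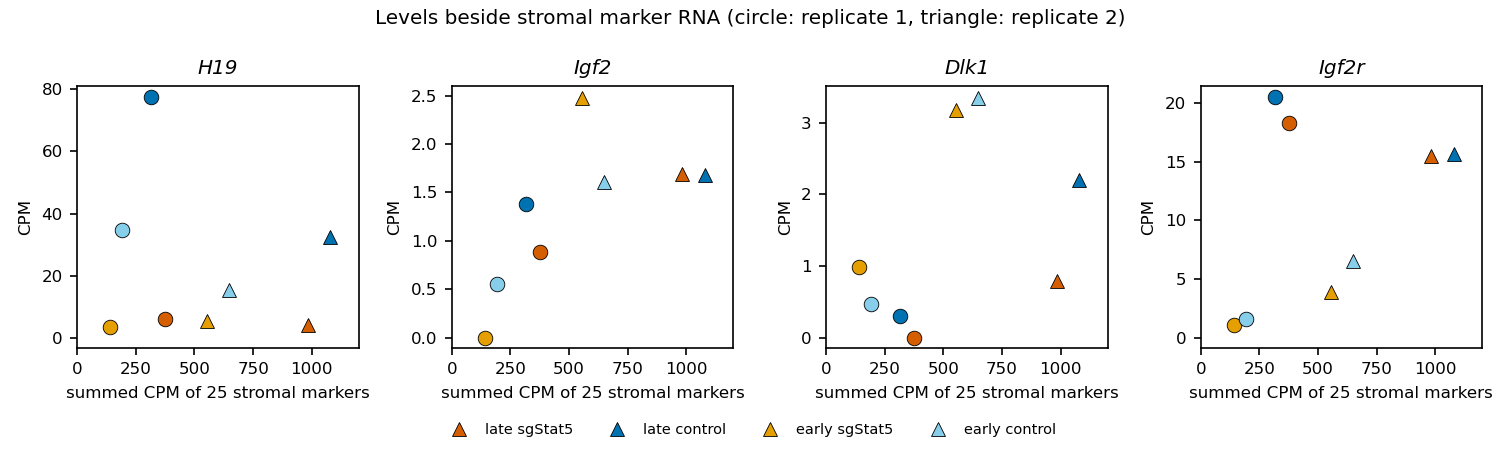
CPM of H19, Igf2, Dlk1 and Igf2r (y axes) against the summed CPM of 25 stromal markers (x axis) in the 8 libraries, coloured by group; circles are replicate 1 and triangles replicate 2. Igf2 and Dlk1 are at 0 in a replicate 1 library each, the stromal sum of every replicate 2 library is at least 555 CPM, and H19 is highest in the late control library with 316 CPM of stromal markers.

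Igf2, the ligand, encodes insulin-like growth factor 2, which is made mostly in the embryo. It had 20 and 47 counts in late sgStat5 libraries, 36 and 52 in late control, 0 and 67 in early sgStat5 and 14 and 50 in early control libraries. Replicate 2 was the higher in all 4 groups and the guide groups overlapped in both gates. The library without an Igf2 count was the one without Col1a1, and the part of stromal RNA in the Igf2 level was not tested. The early-gate log2 fold change was 0.20 with an SE of 1.51, and its 95% interval from -3.35 to 3.75 covers large changes both ways. The sign of that value changed with the block (-0.24) and without early sgStat5 replicate 2 (-7.86) or early control replicate 1 (-0.38).

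Igf2r, on chromosome 17 (12682406 to 12769706, mm10, minus strand), encodes the receptor for mannose 6-phosphate and IGF2, which carries IGF2 to lysosomes and so removes it. Its level followed the gate: it was at 18.3 and 15.5 CPM in late sgStat5 libraries and 20.5 and 15.7 CPM in late control libraries, against 1.08 and 3.92 CPM in early sgStat5 and 1.61 and 6.56 CPM in early control libraries. Every late library was above every early one, and sgStat5 and control libraries overlapped within each gate. The share of all genes whose gates separate in this way was not counted. Late over early, the log2 fold change was 2.74 (SE 0.74) in sgStat5 cells and 2.14 (SE 0.72) in control cells. Neither passed in edgeR without the block (adjusted p = 0.0974 and 0.272), and both did with it (2.88, SE 0.58, adjusted p = 0.00852 in sgStat5 cells, and 2.31, SE 0.56, adjusted p = 0.0325 in control cells).

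The size of the gate difference in Igf2r differed between pairs. It was 17.0- and 3.96-fold in the sgStat5 pairs and 12.7- and 2.39-fold in the control pairs. In the early gate replicate 2 exceeded replicate 1 by 3.63 times in sgStat5 and 4.06 times in control cells. The stromal sums, with Pdgfrb included, had ratios of 3.95 and 3.37 there. In the late gate replicate 1 had the higher Igf2r level in both groups. The part of stromal RNA in the Igf2r levels was not tested. Late over early, the stromal sums differed by 1.64 to 2.67 times, but these sums include Pdgfrb, which was nearly level. In replicate 1, Pdgfrb had 2455 early and 2127 late counts in sgStat5 cells, and 2669 and 2536 in control cells. Col1a2 had 5 early and 677 late counts in those sgStat5 libraries, and 256 and 743 in those control libraries. With the block, the Igf2r call in sgStat5 cells was lost without early sgStat5 replicate 1 (2.27) or late sgStat5 replicate 1 (2.29). That in control cells was lost without early control replicate 1 (1.57) or late control replicate 1 (1.62).

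The guide effect on Igf2r in the late gate was a log2 fold change of -0.10 (SE 0.68, interval -1.71 to 1.51), given as a description. In the early gate it was -0.70 (SE 0.72, interval -2.40 to 0.99, adjusted p = 1.0 in edgeR, and 0.703 with the block), and it turned to 0.65 without early control replicate 2. Airn, an imprinted RNA transcribed on the other strand across the start of Igf2r, had 11 and 7 counts in late sgStat5, 7 and 2 in late control, 0 and 0 in early sgStat5 and 0 and 2 in early control libraries. No strand option is named for the counting, and Airn's counts were few beside those of Igf2r.

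Of the 5 members tested between gates, which leaves out H19, 0 passed in edgeR without the block in either arm, 1 had an unadjusted p under 0.05 in each arm and DESeq2 called 1 in each arm, Igf2r both times. With the block, 2 passed in sgStat5 cells, Igf2r as higher and Dlk1 as lower in the late gate, where 22.8% of all genes passed. In control cells 1 passed, Igf2r, where 10.9% of all genes passed. Without the block the shares of all genes were 0.973% in sgStat5 cells and 0.0145% in control cells. An unadjusted p under 0.05 was found for 3305 of all 13775 genes in sgStat5 cells and 2049 in control cells. DESeq2 called 1684 and 578 genes.

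**Figure D3:**
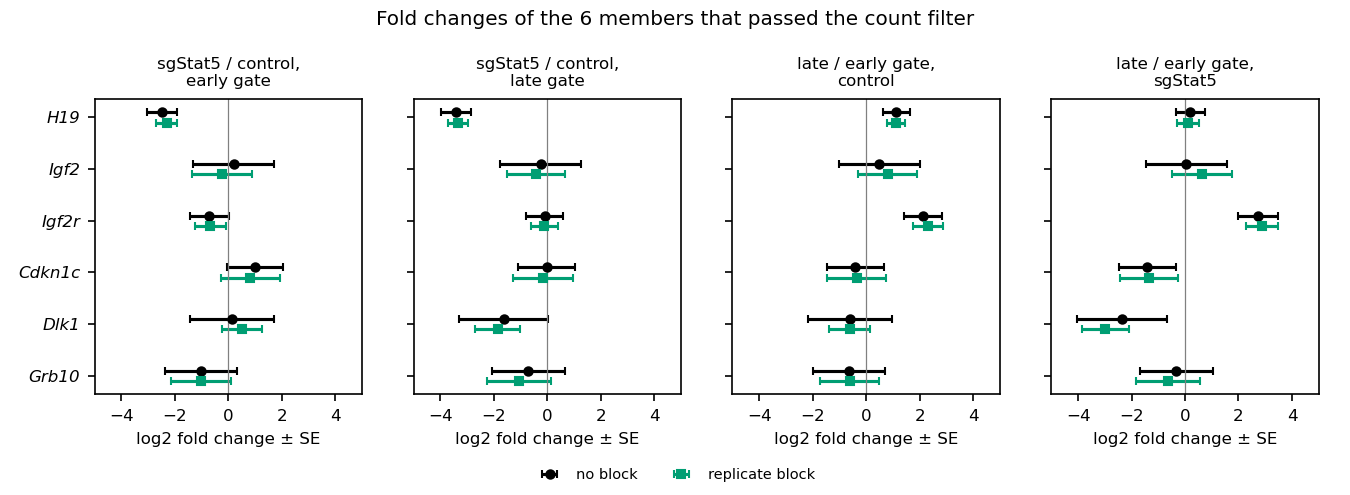
Log2 fold change (x axis) with its SE for the 6 members that passed the filter, in the sgStat5-against-control comparison of each gate and the late-against-early comparison of each guide arm; black circles are fits without and green squares fits with the replicate number as a block. H19 lies at -2.48 in the early gate and -3.42 in the late gate without the block, and Igf2r lies at 2.14 and 2.74 between gates.

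Dlk1, on chromosome 12 (109453455 to 109463336, mm10, plus strand), encodes a membrane protein with EGF-like repeats related to Notch ligands. It had 0 and 22 counts in late sgStat5 libraries, 8 and 68 in late control, 22 and 86 in early sgStat5 and 12 and 104 in early control libraries. Replicate 2 exceeded replicate 1 in all 4 groups, as the stromal sum did. The ratio was 7.16 in late control, 3.21 in early sgStat5 and 7.08 in early control cells, and the part of stromal RNA was not tested. Between gates the stromal sum and Dlk1 ran in opposite directions, as Dlk1 was lower in the late library of every pair. In sgStat5 cells the late-over-early log2 fold change was -2.36 (SE 1.69, adjusted p = 0.429 in edgeR), and -2.98 with the block (SE 0.87, adjusted p = 0.0376). That fitted value rests on a late library without a count; in the second pair, with counts in both, Dlk1 was 4.03-fold lower in the late gate. The blocked call held in 2 of the 8 fits that each left out a library, namely without early or late sgStat5 replicate 2, with log2 fold changes from -7.35 to -2.32 over the 8 fits.

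Meg3, the maternally expressed noncoding RNA that lies 77.7 kb from Dlk1 and is controlled with it, was detected in 2 libraries, with 14 counts in late sgStat5 replicate 2 and 7 in early control replicate 2. Both are replicate 2 libraries; the other 6 libraries had 0 counts of Meg3, and nothing can be said of a difference between groups. The rest of the members were also near the limit of detection.

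Grb10 encodes an adaptor that binds the insulin and IGF1 receptors and dampens their signalling. It had 0 and 32 counts in late sgStat5 libraries, 25 and 29 in late control, 15 and 21 in early sgStat5 and 35 and 49 in early control libraries. In the early gate the sgStat5 libraries were the lower ones, at 0.674 and 0.776 against 1.38 and 1.57 CPM, and in the late gate the groups overlapped. The share of all genes without overlap in the early gate was not counted. Grb10 did not follow the stromal sum between replicates: replicate 2 over replicate 1 was 0.977 in late control, 1.15 in early sgStat5 and 1.14 in early control cells, where the ratios of the stromal sums were 3.41, 3.95 and 3.37. The early log2 fold change of -1.02 (SE 1.36, interval -4.21 to 2.17) did not pass.

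Cdkn1c encodes an inhibitor of cyclin-dependent kinases that holds cells out of the cycle. It had 9 and 5 counts in late sgStat5 libraries, 5 and 12 in late control, 28 and 8 in early sgStat5 and 9 and 13 in early control libraries, and the groups overlapped in CPM in all 4 comparisons. Plagl1 and Peg3 encode zinc finger transcription factors. Plagl1 had 0 and 1 counts in late sgStat5 libraries, 15 and 4 in late control, 0 and 0 in early sgStat5 and 0 and 6 in early control libraries. Of its 26 counts 25 fell in control libraries, with 15 in late control replicate 1 and 0 in early control replicate 1. Plagl1 did not pass the count filter and was not tested. Peg3 had 6 counts in early control replicate 1 and 0 in the other 7 libraries.

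For Igf2, Cdkn1c, Dlk1 and Grb10 together, the lowest adjusted p of edgeR in the early guide comparison was 1.0 without the block and 0.778 with it. Between gates it was 0.429 in sgStat5 cells and 0.861 in control cells without the block; in control cells it was 0.663 with the block, and in sgStat5 cells the blocked call of Dlk1 stands above. The 95% intervals of the 4 early log2 fold changes reached from -4.21 at the lowest end to 3.83 at the highest, which includes changes of several fold either way.

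Per length of transcript, H19 had the highest mean FPKM of the 9 members in all 4 groups, and 65.1% of all genes had a lower median FPKM over the 8 libraries. Its mean was 1.68 ± 0.450 FPKM in late sgStat5 libraries and 17.1 ± 10.0 FPKM in late control libraries, and 1.39 ± 0.403 FPKM in early sgStat5 and 7.78 ± 4.16 FPKM in early control libraries (SD, n = 2 each). Igf2r was next in the late gate, at 1.41 ± 0.177 FPKM with the guides and 1.45 ± 0.278 FPKM without. In late sgStat5 cells the ranges of H19 and Igf2r overlapped, whereas in the other 3 groups every H19 value was above every value of the next gene. Below H19 and Igf2r in the late gate, Igf2, Cdkn1c, Grb10 and Dlk1 followed in sgStat5 cells and Igf2, Dlk1, Grb10 and Cdkn1c in control cells. Early-gate libraries gave, below H19, the order Dlk1, Cdkn1c, Igf2, Igf2r and Grb10 in sgStat5 cells and Igf2r, Dlk1, Igf2, Grb10 and Cdkn1c in control cells. In early sgStat5 cells each gene of this order overlapped the next, and in early control cells Igf2r, Dlk1 and Igf2 did. In the late gate each overlapped the next from Cdkn1c to Dlk1 in sgStat5 cells and from Igf2 to Cdkn1c in control cells, while Igf2r lay above Igf2 in both groups. For Igf2, Meg3 and Grb10 the FPKM values refer to another transcript than the counts.

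The genes around H19 were looked at next. The interval of 1000 kb on each side of H19 holds 50 genes of the table, of which 20 were tested; leaving out H19 and the miRNA within it, 18 remained. Of these 18, 0 passed in edgeR without the block in either gate. In each gate 1 had an unadjusted p under 0.05, against 1713 of all 13775 genes in the late and 887 in the early gate. DESeq2 called 0 of the 18 in each gate, against 629 and 247 of all genes. With the block 1 passed in the late gate, where 8.22% of all genes passed, and 0 in the early gate, where 2.33% did. The gene that passed was Ctsd, which encodes the lysosomal protease cathepsin D, with a late log2 fold change of -0.31 (adjusted p = 0.0338 with the block). The nearest tested gene on the other side from Igf2, Mrpl23, which encodes a mitochondrial ribosomal protein and ends 34.8 kb away, averaged 37.3 ± 3.27 CPM in late sgStat5 and 39.9 ± 4.40 CPM in late control libraries, and 36.8 ± 0.257 CPM in early sgStat5 and 40.5 ± 1.25 CPM in early control libraries. Its log2 fold changes were -0.10 (SE 0.13) in the late and -0.14 (SE 0.13) in the early gate, and the late value came to 0.0020 without late control replicate 1.

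**Figure D4:**
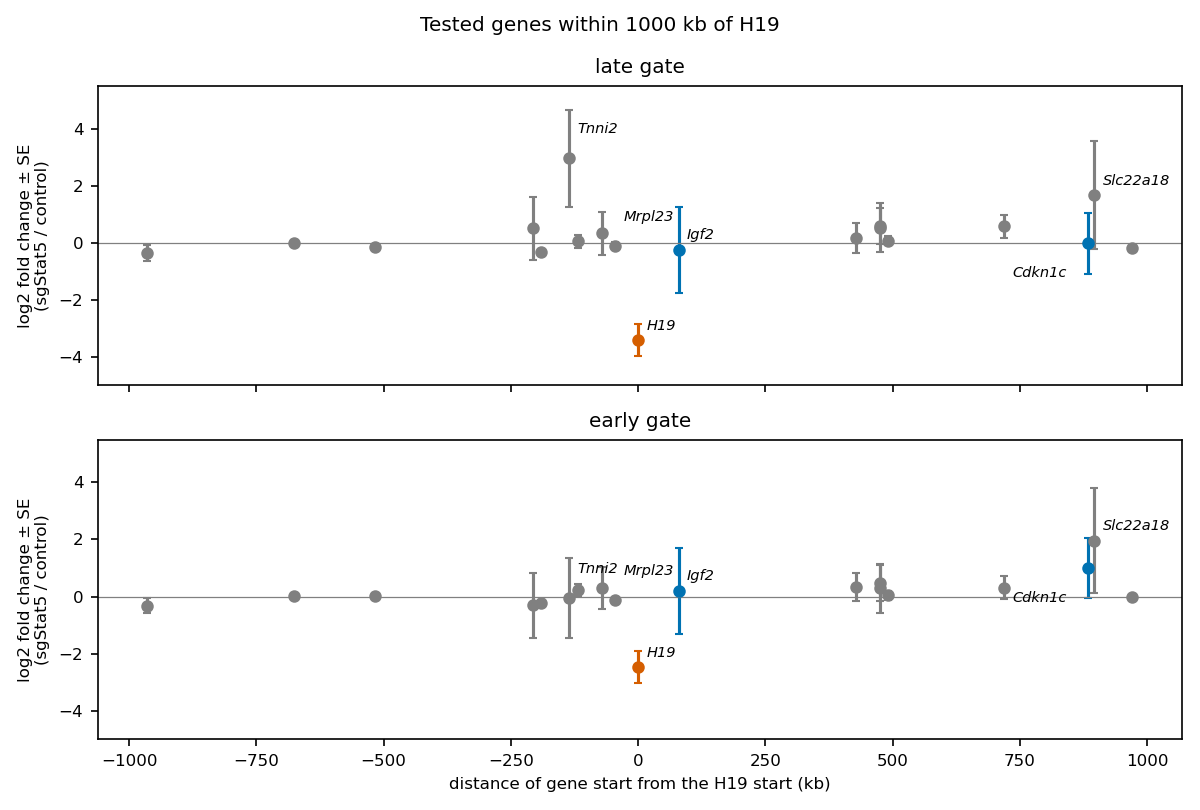
Log2 fold change of sgStat5 against control with its SE (y axis) for the tested genes within 1000 kb of H19, by distance of their start from that of H19 in kb (x axis), in the late gate (top) and the early gate (bottom). H19 (orange) stands at -3.42 and -2.48, its imprinted neighbours Igf2 and Cdkn1c are in blue, and the other genes lie between -0.36 and 2.96 in the late gate, with the widest bars at genes of few counts; the miRNA gene within H19 is not drawn.

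The nearest tested genes on each side of the 9 members were 14 genes besides members. Of these, 0 passed in edgeR without the block in any of the 4 comparisons, and in the guide comparisons 1 passed with the block in the late gate (Sec61g, adjusted p = 0.0498, which lies 4464 kb from Grb10) and 0 in the early gate. Between gates 3 passed with the block in sgStat5 cells (Fignl1, Ltv1 and Tspan32) and 2 in control cells (Ltv1 and Tspan32), against 22.8% and 10.9% of all genes in those comparisons. At an unadjusted p under 0.05 there were 1 in the late and 0 in the early guide comparison, 5 between gates in sgStat5 cells and 1 in control cells. DESeq2 called 0 in both guide comparisons and 1 in each gate comparison, Ltv1 both times. In the same order, 1713, 887, 3305 and 2049 of all 13775 genes had such an unadjusted p. DESeq2 called 629, 247, 1684 and 578 of all genes.

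Of 54 other imprinted genes, 30 were tested. The most abundant were Gnas, which encodes the stimulatory G protein alpha subunit and averaged 580 ± 29.3 CPM in late sgStat5 and 624 ± 32.7 CPM in late control libraries, the histone chaperone Nap1l4 at 208 ± 3.56 and 236 ± 2.31 CPM, and H13, which encodes signal peptide peptidase, at 208 ± 12.9 and 240 ± 15.7 CPM (SD, n = 2 each). None of the 30 passed in edgeR in the guide comparison of either gate, with or without the block. Of all genes, 8.22% passed with the block in the late gate and 2.33% in the early gate. In each gate 1 of the 30 had an unadjusted p under 0.05 and DESeq2 called 0. Such a p was found for 1713 of all 13775 genes in the late and 887 in the early gate. DESeq2 called 629 and 247 of all genes. Their median log2 fold change was 0.09 in the late gate, against -0.02 over all genes tested, and -0.04 in the early gate, against -0.00 over all genes.

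Between gates 0 of the 30 passed without the block, with 6 at an unadjusted p under 0.05 in sgStat5 cells and 1 in control cells, and DESeq2 called 1 (Sgce) in sgStat5 cells and 0 in control cells. With the block 3 passed as lower in the late gate in sgStat5 cells, Tspan32, Osbpl5 and Peg13, and 1 in control cells, again Tspan32. Both counts are below the shares of all genes that passed there, 22.8% and 10.9%. An unadjusted p under 0.05 was found for 3305 of all 13775 genes in sgStat5 cells and 2049 in control cells. DESeq2 called 1684 and 578 of all genes. Tspan32, a tetraspanin gene that starts 427.5 kb from the start of H19, averaged 8.81 CPM in late sgStat5 and 22.8 CPM in early sgStat5 libraries. It averaged 7.84 CPM in late control and 18.0 CPM in early control libraries. Its blocked log2 fold change was -1.40 (SE 0.17, adjusted p = 0.00106) in sgStat5 cells and -1.23 (SE 0.17, adjusted p = 0.00448) in control cells; without the block the adjusted p was 0.170 and 0.340. The call in sgStat5 cells held in all 8 blocked fits without a library, and that in control cells was lost without replicate 1 of the early (adjusted p = 0.0528) or the late group (adjusted p = 0.0574).

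The IGF pathway list held 28 further genes for ligands, receptors, binding proteins and signalling, of which 20 were tested. In the guide comparisons 0 passed in edgeR without the block, with 4 at an unadjusted p under 0.05 in the late gate and 2 in the early gate. DESeq2 called 1 in the late gate (Pik3cd) and 0 in the early gate. Over all 13775 genes, 1713 in the late and 887 in the early gate had such an unadjusted p. DESeq2 called 629 and 247 of all genes. The median log2 fold change was -0.03 in the late gate, against -0.02 over all genes, and -0.10 in the early gate, against -0.00 over all genes. With the block Igfbp4 was lower in both gates and Pik3cd in the late gate. Of all genes, 8.22% passed with the block in the late gate and 2.33% in the early gate.

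Igfbp4, the most abundant gene of the list, encodes a secreted protein that binds IGFs. It had 228 and 413 CPM in late sgStat5 libraries, against 456 and 816 CPM in late control libraries, and 440 and 533 CPM in early sgStat5 libraries, against 736 and 912 CPM in early control libraries. Each sgStat5 library was below the control library of the same number, and replicate 2 was above replicate 1 in every group. The groups did not overlap in either gate, and the share of all genes with this trait was not counted. The blocked log2 fold change was -0.99 (SE 0.14, adjusted p = 0.00360) in the late gate and -0.76 (SE 0.14, adjusted p = 0.0295) in the early gate, and without the block the adjusted p was 0.299 and 0.811. The late call held in all 8 blocked fits that left out a library. The early one held in 6 of 8 and was lost without early sgStat5 replicate 2 (-0.56) or early control replicate 1 (-0.57).

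Pik3cd, which encodes the catalytic subunit delta of phosphoinositide 3-kinase in white blood cells, averaged 321 ± 24.8 CPM in late sgStat5 and 461 ± 79.9 CPM in late control libraries. Its blocked log2 fold change in the late gate was -0.52 (SE 0.08, adjusted p = 0.00601, and 0.131 without the block), and the call held in 6 of 8 blocked fits without a library. It was lost without late sgStat5 replicate 1 (adjusted p = 0.0673) or replicate 2 (adjusted p = 0.0518).

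Between gates 0 of the 20 IGF pathway genes passed without the block, with 3 at an unadjusted p under 0.05 in sgStat5 cells and 1 in control cells, and DESeq2 called 1 (Irs2) in sgStat5 cells and 0 in control cells. With the block 2 were higher in the late gate in sgStat5 cells, Irs1 and Irs2, which encode insulin receptor substrates, and 2 were lower, Grb2 and Igfbp4. These calls are no larger a share of the list than the 22.8% of all genes that passed there. An unadjusted p under 0.05 was found for 3305 of all 13775 genes in sgStat5 cells and 2049 in control cells. DESeq2 called 1684 and 578 of all genes. The median log2 fold change late over early was 0.14 in sgStat5 and 0.16 in control cells, against 0.03 over all genes in each.

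The list of imprint control and let-7 genes holds enzymes and binding proteins that write, read or protect imprints, with the let-7 regulators Lin28a and Lin28b and the let-7 target Hmga2. Of its 29 genes, 26 were tested, and their median log2 fold change was 0.00 in both gates. The 2 DNA methyltransferases that set new methylation moved in opposite directions in the late gate. Dnmt3a rose to 175 and 173 CPM in late sgStat5 libraries, against 118 and 121 CPM in late control libraries. Dnmt3b fell to 115 and 125 CPM in late sgStat5 libraries, against 192 and 223 CPM in late control libraries. Neither pair of groups overlapped, and the share of all genes with this trait was not counted.

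The log2 fold change of Dnmt3a was 0.54 (SE 0.09, adjusted p = 0.0371 in edgeR) and that of Dnmt3b -0.79 (SE 0.12, adjusted p = 0.0246). The Dnmt3a call was lost in all 8 fits that each left out a library (log2 fold change 0.51 to 0.57, adjusted p 0.0711 to 0.213), and the Dnmt3b call held in 3 of 8 (-0.91 to -0.66), namely without early sgStat5 replicate 1 or 2 or without late control replicate 1. In the early gate Dnmt3a was at 217 and 196 CPM with sgStat5, against 184 and 166 CPM in controls, and Dnmt3b at 173 and 205 CPM with sgStat5, against 214 and 219 CPM in controls. Neither passed there (0.24, adjusted p = 0.683, and -0.20, adjusted p = 0.900), and 0 of the 26 genes passed in the test of the difference between gates, where 3 had an unadjusted p under 0.05 and DESeq2 called 0. For the early guide comparison, 0 of the 26 passed in edgeR with or without the block, 2 had an unadjusted p under 0.05 and DESeq2 called 0. Of all 13775 genes, 302 had such a p in the test of the difference and 887 in the early guide comparison. DESeq2 called 2 and 247 of all genes.

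With the block 4 genes of this list passed in the late guide comparison, where 8.22% of all genes did (1.71% without the block). Dnmt3a, Hmga2 and Znfx1 were higher and Dnmt3b was lower. Hmga2, which encodes a chromatin protein of growing and embryonic cells, averaged 16.7 CPM in late sgStat5 and 3.97 CPM in late control libraries, with a blocked log2 fold change of 2.11 (SE 0.25, adjusted p = 0.00101, and 0.414 without the block); it held in all 8 blocked fits without a library. Between gates 0 of the 26 passed without the block, with 7 at an unadjusted p under 0.05 in sgStat5 and 4 in control cells, and DESeq2 called 1 (Dnmt3b) and 2 (Ctcf and Dnmt3a). With the block 5 were higher and 1 lower in the late gate in sgStat5 cells. In control cells 2 were higher (Ctcf and Rad21, which encodes a cohesin subunit) and 1 lower (Dnmt3a). Of all genes, 22.8% passed with the block in sgStat5 cells and 10.9% in control cells, and the counts of this list lie near those shares. An unadjusted p under 0.05 was found for 3305 of all 13775 genes in sgStat5 cells and 2049 in control cells. DESeq2 called 1684 and 578 of all genes. Ctcf, the insulator protein that binds the H19 imprinting region, averaged 326 CPM in late sgStat5 and 313 CPM in late control libraries, and 269 CPM in early sgStat5 and 249 CPM in early control libraries. The most abundant genes of the list were Trim28, a corepressor that protects imprints, at 634 ± 54.2 CPM in late sgStat5 and 677 ± 51.5 CPM in late control libraries, the maintenance methyltransferase Dnmt1 at 654 ± 65.8 and 735 ± 103 CPM, and its partner Uhrf1 at 617 ± 58.2 and 587 ± 94.7 CPM.

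The 5 tested genes whose log2 CPM followed H19 most closely over the 8 libraries were Insl5 (Pearson r 0.992), Ston1 (0.989), Actr3b (0.987), Slc14a1 (0.983) and Lfng (0.976). They were chosen for this pattern, the 8 libraries share groups and replicate numbers, and no test was made. All 5 were below every control library in all 4 sgStat5 libraries, and in both control groups replicate 1 was above replicate 2. Actr3b, which encodes an actin-related protein, had 4.60 and 3.33 CPM in late sgStat5 libraries, against 37.3 and 16.2 CPM in late control libraries, and 1.93 and 3.29 CPM in early sgStat5 libraries, against 21.7 and 12.4 CPM in early control libraries. Its differences between groups and between control replicates were of the size of those of H19. Insl5, which encodes an insulin-like peptide hormone, stayed low, with 13 and 13 counts in late sgStat5 libraries, against 76 and 51 in late control libraries, and 9 and 16 in early sgStat5 libraries, against 52 and 42 in early control libraries. Lfng, which encodes a glycosyltransferase that modifies Notch receptors, averaged 28.4 ± 3.10 CPM in late sgStat5 and 56.0 ± 7.06 CPM in late control libraries, and Slc14a1, a urea transporter gene, 34.4 ± 3.81 and 65.8 ± 10.3 CPM. Ston1, which encodes an endocytic protein, averaged 0.943 ± 0.167 and 2.53 ± 0.479 CPM.

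**Figure D5:**
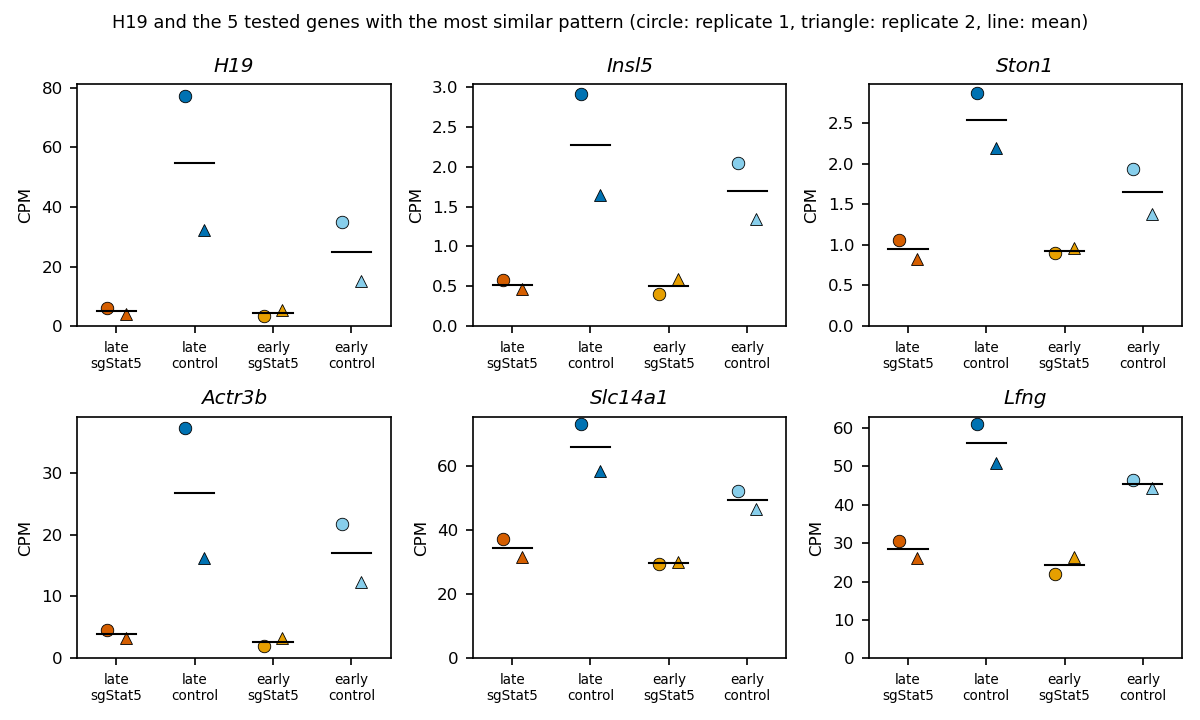
CPM of H19 and of the 5 tested genes with the highest correlation to it (linear axes from 0, each panel with its own scale) in each library, by group; circles are replicate 1, triangles replicate 2 and lines the mean of 2 libraries. In each panel the 4 sgStat5 libraries lie below the 4 control libraries.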

How the data were processed

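Bulk RNA-seq of 8 libraries was used. Per the submitters' processing notes, the genome was GRCm38 (mm10) and the tools included RSEM 1.2.25, STAR 2.4.0 and bcl2fastq 1.8.4. Per the file headers, the authors then counted with HOMER: the deposited counts are unadjusted tags summed over exons, with 1 RefSeq transcript standing for each gene. The authors' FPKM values are scaled by transcript length and library size, and served for levels between genes only and in alternatives. CPM was computed from the counts and the library's total over the tested genes, multiplied by its TMM factor (edgeR's scaling factor for a library).

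The test of counts was that of edgeR 4.0.16 (R 4.3.3): filterByExpr, TMM scaling and a two-sided quasi-likelihood F-test on all 8 libraries with 1 mean per group, adjusted by Benjamini-Hochberg over 13775 genes (threshold 0.05). SE and 95% intervals are those of the log2 fold change. Replicate numbers recur in all groups; how far the replicates lay from their group mean was correlated in all 6 pairs of groups (r 0.421 to 0.578 over 13775 genes), so the numbers pair the libraries and values with the replicate number as a block stand beside the others. DESeq2 1.42.0, limma 3.58.1 on FPKM, other scalings and filters, and fits without 1 library were alternatives. The scripts were tested on simulated data.

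Members and lists were chosen with earlier results of these data known. Named were all members, up to 6 genes per list past the threshold or otherwise the 3 most abundant, the neighbours of members and the 5 genes most correlated with H19; list genes that passed only with the block, by DESeq2 or in other ways outside this rule were named after their values were seen. The result of 1 gene of the IGF pathway list is not reported here.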

Additional observations from a re-analysis of the deposited data

Results flagged for a closer look

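Igf1r, which encodes the receptor through which IGF1 and IGF2 signal, was higher with the guides in both pairs of the late gate and lower in both pairs of the early gate. It had 54.7 and 37.6 CPM in late sgStat5 libraries, against 30.9 and 36.8 CPM in late control libraries, and 49.7 and 28.2 CPM in early sgStat5 libraries, against 62.6 and 35.1 CPM in early control libraries. The guide effect in the late gate minus that in the early gate was 0.77 on the log2 scale (SE 0.51, interval -0.43 to 1.97), and it did not pass in edgeR (adjusted p = 1.0; 0.836 with the block). The groups overlapped in the early gate and not in the late gate, and the share of all genes with such a pattern was not counted.

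H13 was lower in the late than in the early gate in both sgStat5 pairs and higher in both control pairs. It had 217 and 198 CPM in late sgStat5 and 224 and 213 CPM in early sgStat5 libraries, and 251 and 229 CPM in late control and 226 and 227 CPM in early control libraries. The difference between the gate effects was -0.16 (SE 0.12, adjusted p = 1.0 in edgeR; 0.867 with the block), and H13 did not pass in any of the 4 comparisons.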

How the results depend on the processing

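Depth limits the low members: 3 counts were 0.0964 to 0.135 CPM, and 2 libraries a group leave 4 residual degrees of freedom (3 with the block). The replicate block lowered the common dispersion to 0.0178, against 0.0853 without it, and raised the number of genes past the threshold to 321 in the early guide comparison (37 without it), 1132 in the late one (235), 3144 between gates in sgStat5 cells (134) and 1507 in control cells (2). In the same order DESeq2 gave 247, 629, 1684 and 578; no filter on low counts 114 in the early guide comparison, 760 and 83 between gates; only the 4 libraries of a comparison 3, 4, 2 and 0; FPKM without a filter 18, 153, 7 and 6; FPKM with a pseudocount of 1 gave 0 in control cells. Leaving out 1 library gave 0 to 30, 63 to 151, 0 to 529 and 0 to 32. The guide-by-gate difference had 0 calls in edgeR with or without the block, 302 genes at an unadjusted p under 0.05, and 2 calls in DESeq2. Members past the threshold in the early guide comparison numbered 1 with the block, DESeq2 or no filter, against 0; between gates in sgStat5 cells 2 with the block and 1 with DESeq2 or no filter, against 0; in control cells 1 with the block or DESeq2, against 0.

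The early H19 log2 fold change was -2.51 without a filter, -2.49 in DESeq2 and -2.31 with the block, all past the threshold, and -2.96 to -1.78 over fits without 1 library; with the block these gave -3.25 to -1.56. In the late gate it was -2.65 on FPKM with a pseudocount of 1 and -3.90 to -2.67 without 1 library. Igf2r between gates in control cells was 2.13 in DESeq2 and 2.31 with the block, both past the threshold (without 1 library 1.45 to 3.48, with the block 1.57 to 3.39). In sgStat5 cells it was 2.75 without a filter, 2.76 in DESeq2 and 2.88 with the block, all past it (2.11 to 3.96; with the block 2.27 to 3.82). The early guide effect on Igf2r reversed to 0.65 without early control replicate 2; over fits without 1 library it ran from -1.93 to 0.65. The early guide effect on Igf2, which rests on a library without a count, reversed with the block (-0.24) and on FPKM (-0.61 with or without a filter and -0.058 with a pseudocount of 1), and ran from -7.86 to 1.19 without 1 library; the late effect on Mrpl23 ran from -0.19 to 0.0020. The cause of these shifts was not tested. The leave-one-out fits with the block were chosen after seeing the data.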
